A study of Mus musculus with 4 samples.

Results

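Genes of the cytosolic ribosomal proteins were followed in single-nucleus RNA sequencing libraries of mouse hippocampus. This set was chosen with earlier results of these data known. Its genes were taken by symbol: every row named Rpl or Rps with a number, together with Rplp0, Rplp1, Rplp2 and Rpsa. After the number, no suffix other than a, x, y or l was taken (with or without a further digit). This gave 83 of the 32285 genes in the count tables, 51 with symbols of the large subunit and 32 with symbols of the small subunit. There were 2 libraries from trained mice (Trained replicate 1 and Trained replicate 2) and 2 from untrained mice (Untrained replicate 1 and Untrained replicate 2). Trained mice had learned active place avoidance, a task in which a mouse on a rotating arena keeps out of a shock zone. Hippocampus was taken 3 days after a retention test, and memory recall was not triggered before that. All mice, controls included, had the genotype ArcCreERT2::eYFPflx, in which Arc-driven Cre marks neurons that expressed Arc with eYFP. Marked nuclei were not told apart here. The comparison of trained with untrained mice addresses which transcripts differ while a stable memory is kept. The library was the replicate (n = 2 per group, taken as a mouse each, as the design text has 2 mice in a group), and p-values measure only the spread between these 4 samples, which may in part be technical.

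A cytosolic ribosome joins a small subunit, which reads the mRNA, to a large subunit, which makes the peptide bond, and each ribosome carries a copy of most of these proteins, so the genes are expressed in every cell and in near-constant proportions. Their mRNAs start with a 5′ terminal oligopyrimidine tract (TOP), a C followed by a run of C and T, through which mTORC1 and the LARP1 protein set their translation. They are mature, spliced and mostly cytoplasmic mRNAs, and in neurons some are also found in dendrites and axons. Members with further roles are in the set: the stalk proteins Rplp0, Rplp1 and Rplp2, which bring translation factors to the ribosome; Rpsa, which is also known as a laminin receptor; and 6 paralogs with the suffix l or l1 (Rpl3l, Rpl7l1, Rpl10l, Rpl22l1, Rpl39l and Rps27l), some of which are known from muscle or testis.

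Start-site sequences are shown because the genes had like differences in the comparisons below and the TOP tract is the sequence feature they are known to share. RefSeq (build GRCm38.p6) gave a start site for 63 of the 83 genes. The lines below run 5′ to 3′ on the gene's own strand over 30 bases, 15 before and 15 from the annotated start, and capitals mark the longest run of C and T in the window where it reaches 5 bases. Rps6 lies at chr4:86857353-86857382 on the minus strand, Rpl38 at chr11:114668565-114668594 on the plus strand, Rpl35 at chr2:39005117-39005146 on the minus strand and Rpl27a at chr7:109519180-109519209 on the plus strand. Rplp2 lies at chr7:141447636-141447665 on the plus strand, Rps26 at chr10:128626492-128626521 on the minus strand, Rpl22l1 at chr3:28805493-28805522 on the plus strand and Rpl7l1 at chr17:46782642-46782671 on the minus strand.
Rps6: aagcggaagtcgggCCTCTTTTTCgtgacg
Rpl38: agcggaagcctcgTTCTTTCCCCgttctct
Rpl35: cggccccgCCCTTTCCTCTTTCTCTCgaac
Rpl27a: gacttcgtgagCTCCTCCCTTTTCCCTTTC
Rplp2: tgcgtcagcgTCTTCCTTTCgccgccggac
Rps26: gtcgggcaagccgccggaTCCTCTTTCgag
Rpl22l1: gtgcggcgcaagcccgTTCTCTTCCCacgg
Rpl7l1: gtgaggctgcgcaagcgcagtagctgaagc

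The run was 10 bases long in Rps6, 18 in Rpl35 and 19 in Rpl27a, and the window of Rpl7l1 held none of 5 bases. Over the 63 genes, 27 (42.9%) had a run of at least 8 C or T in this window, against 2848 of 20267 genes with a RefSeq start (14.1%). The motif CTTCCG, searched on both strands over 300 bases (250 before the start and 50 after), was in 42 of the 63 (66.7%) and in 4461 of the 20267. TATAAA, searched the same way, was in 7 of the 63 (11.1%) and in 14.6% of all genes. Annotated starts can differ from the start used in hippocampus, so a missing run says only that those letters are not in this window.

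The libraries held 23155826 and 26369095 UMIs (unique molecular identifiers, counted molecules) for trained mice, against 39749125 and 24636056 for untrained mice. Barcodes of at least 600 UMIs, taken as nuclei, numbered 6019, 12206, 16916 and 11969 in the order Trained 1, Trained 2, Untrained 1, Untrained 2, with median UMIs of 736, 887, 957.5 and 1079. Barcodes under 400 UMIs numbered 26378 to 55744 per library; these can hold free RNA or thin nuclei, which were not separated. Pairs of libraries shared 748 to 1596 barcode sequences, of which 17 to 65 had at least 600 UMIs in both. Every marker of the dentate granule, CA1 and CA3 lists had UMIs in every library, and so did those of the thalamic (Prkcd among them) and cortical (Foxp2 and Rorb among them) lists. The same held for all 16 marker lists, blood included, so it cannot tell hippocampus from other tissue. Ttr, the main secreted protein of choroid plexus, stood at 1047 and 1024 CPM (counts scaled to a common library total) in trained and 335 and 434 CPM in untrained nuclei. The 9 markers of the choroid plexus list summed to 1288 and 1123 CPM in trained and to 844 and 1084 CPM in untrained nuclei. Of 16 marker lists, 4 had summed levels in nuclei that did not overlap, each higher in trained libraries (choroid plexus, CA3, deep-layer cortical and oligodendrocyte). No background share was set beside this count of lists. The deep-layer cortical sums lay close together, at 1230 and 1260 CPM in trained and 1222 and 1213 CPM in untrained nuclei. Oligodendrocyte markers summed to 1458 and 1417 against 1320 and 1372 CPM. The 8 markers of CA3 neurons summed to 1210.4 and 1019 CPM in trained and to 755 and 859 CPM in untrained nuclei. The part of these differences in the results below was not tested. In such sums, fewer cells of a type and less RNA per cell cannot be told apart.

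Summed over all 83 genes, ribosomal protein mRNA was a small share of nuclear UMIs and was lower in both trained libraries. In barcodes of at least 600 UMIs the share was 1.26% and 1.20% in Trained replicates 1 and 2, and 1.90% and 1.36% in Untrained replicates 1 and 2. The trained mean was 1.23% ± 0.0453 and the untrained mean 1.63% ± 0.382 (SD, n = 2), so the groups did not overlap, but the untrained libraries lay farther from each other than Untrained replicate 2 lay from the trained pair. Exact binomial 95% intervals were narrow (1.25% to 1.27% in Trained replicate 1) and cover counting error only. An exact permutation of 2 against 2 libraries cannot reach 0.05, so the share was not tested.

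Barcodes under 400 UMIs held a larger share in every library: 3.39%, 4.71%, 5.66% and 4.90% in the same order. From 300 to under 1500 UMIs, the number of ribosomal protein UMIs per barcode moved little with depth. In Trained replicate 2 a barcode of 300 to under 400 UMIs held 11.8 of them on average, one of 600 to under 800 UMIs held 11.4 and one of 1000 to under 1500 UMIs held 12.5. In Untrained replicate 1 the same 3 bins held 19.0, 19.6 and 21.0, and in Untrained replicate 2 they held 16.2, 15.8 and 16.7. Trained replicate 1 went from 8.38 to 9.73 and 10.8. Deeper barcodes, of 2000 to under 3000 UMIs, held 14.9 in Trained replicate 2, 24.6 in Untrained replicate 1 and 19.2 in Untrained replicate 2. The libraries were therefore ordered Trained 1, Trained 2, Untrained 2, Untrained 1 in each of the first 3 bins, for nuclei and low-UMI barcodes alike. The share of mitochondrial UMIs moved the same way with depth, from 0.966% at 300 to under 400 UMIs to 0.277% at 1000 to under 1500 UMIs in Trained replicate 2. The part of free RNA in the nuclear values was not tested.

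**Figure D1:**
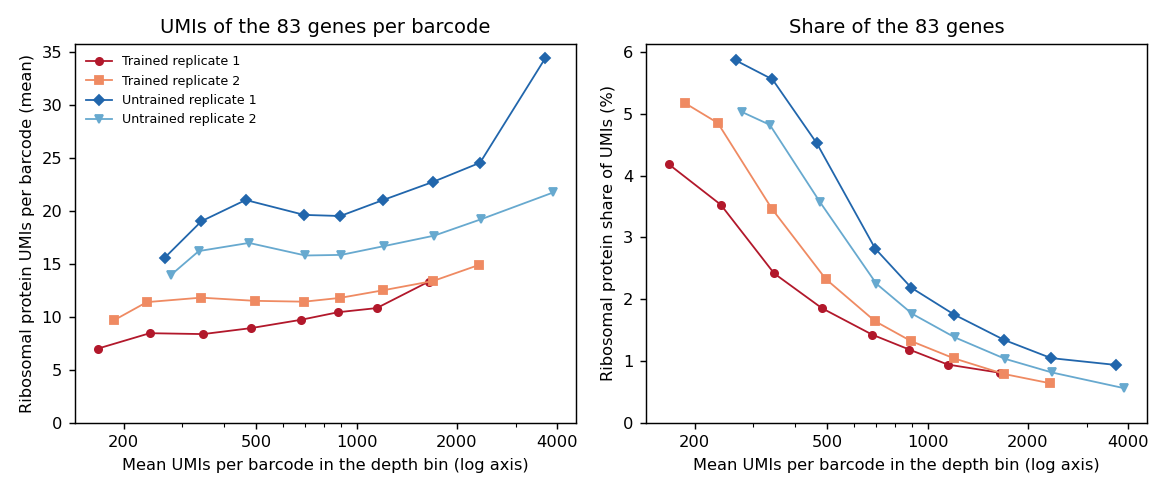
Ribosomal protein UMIs per barcode (left, mean) and their share of all UMIs (right, %) against the mean UMIs of the depth bin on a log axis, 1 line per library, bins of at least 50 barcodes. In Trained replicate 2 the mean count stays between 11.4 and 12.5 at 300 to under 400, 600 to under 800 and 1000 to under 1500 UMIs, while the share goes from 3.46% to 1.64% and 1.04%.

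Within the nuclei the set was tested gene by gene, with edgeR's quasi-likelihood test over all genes. A count filter passed 80 of the 83 genes. Rpl10l had 0 UMIs in all 4 libraries, Rpl39l had 9 UMIs in Untrained replicate 1 and 0 in the others, and Rpl3l had 0, 2, 11 and 4, and a count of 0 allows up to 3 counts in a library. These are the paralogs known from testis or muscle. Of the other paralogs, Rpl22l1 was counted at 116, 88.3, 155 and 105 CPM (TMM-normalised, as are the CPM of nuclei below), Rps27l at 19.9, 16.7, 30.6 and 19.1 and Rpl7l1 at 18.8, 18.4, 24.0 and 20.7, in the order Trained 1, Trained 2, Untrained 1, Untrained 2. CPM of 3′ counts are not set per length, so these levels are compared between libraries and not between genes. Reads of ribosomal protein mRNAs can also match processed pseudogenes, so each level is uncertain by what the counting discarded or split.

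No ribosomal protein gene passed the test for training in nuclei, although trained values were lower across the set. The edgeR test called 0 of 80 at an adjusted p of 0.05, where 0% of the 17455 genes tested were called; DESeq2 also called 0 of the 80. All 80 estimates were below 0, with a median log2 difference (trained minus untrained) of -0.38, against 0.00 over all genes. At an unadjusted p under 0.05 there were 42 of the 80 by edgeR, where 6.27% of all genes tested had one in either direction, and 42 by DESeq2, where 3.13% had. The 80 values share 4 libraries, so their common sign is not 80 observations.

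The gene with the smallest p was Rps6, the small-subunit protein phosphorylated by S6 kinase downstream of mTORC1. It stood at 79.9 and 73.8 CPM in trained and 117 and 106 CPM in untrained nuclei, a log2 difference of -0.53 (SE 0.13, adjusted p = 0.79, edgeR). Its groups did not overlap. Rpl3, a large-subunit protein next to the peptidyl transferase centre, stood at 154 and 188 CPM in trained and 246 and 255 CPM in untrained nuclei (log2 -0.55, SE 0.14, edgeR adjusted p = 0.79). Rpl17 near the exit tunnel was at 110.3 and 118 against 184 and 152 CPM. Rps3 at the mRNA entry site was at 103 and 108 against 158 and 138 CPM. In all 4 genes both trained libraries lay under both untrained ones, and this held for 55 of the 80, where 18.7% of the 17455 genes had both trained libraries lower.

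Rplp1 of the stalk stood at 350.1 and 354 CPM in trained and 532 and 416 CPM in untrained nuclei, with no overlap. Rplp0, the stalk base, stood at 60.7 and 62.6 against 78.3 and 75.5 CPM, again with no overlap. Rplp2 stood at 169 and 150 against 257 and 166 CPM, where Trained replicate 1 lay above Untrained replicate 2. Rpsa was at 190.0 and 213 against 281 and 235 CPM, without overlap. None of the 4 passed the test, as for the rest of the set.

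Among the genes with high counts, Rpl13, Rpl27a, Rpl37, Rps14, Rpl19 and Rplp1 had groups that did not overlap. Rpl19, for example, stood at 229 and 233 CPM in trained and 337 and 273 CPM in untrained nuclei. Rps29, Rpl38, Rps21, Rpl6 and Rpl41 overlapped, because Untrained replicate 2 lay at or under a trained library. Rps29 was the clearest case, at 390 and 443 CPM in trained nuclei and at 588 and 273 CPM in the untrained: the untrained libraries held both the highest and the lowest value.

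**Figure D2:**
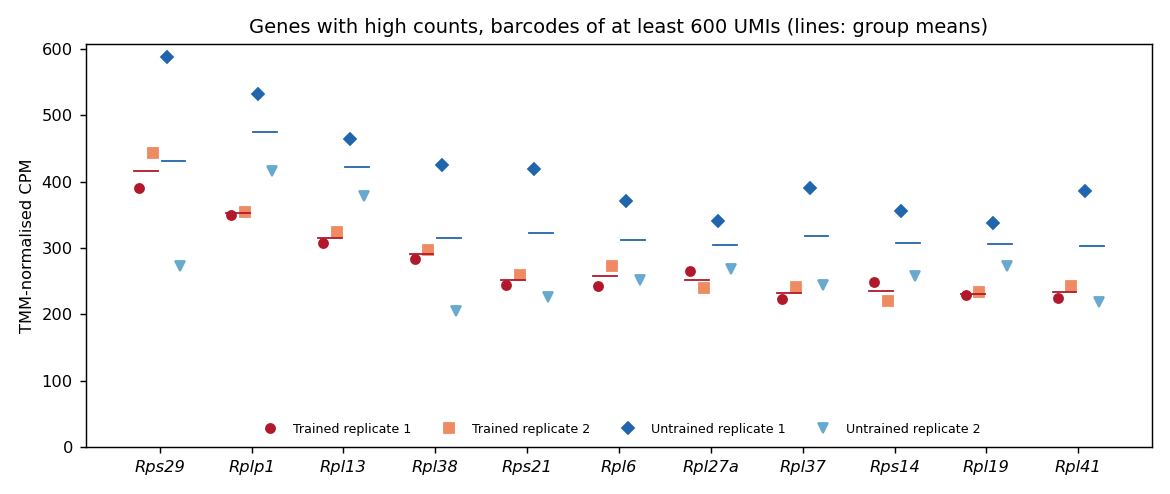
TMM-normalised CPM of ribosomal protein genes with high counts in barcodes of at least 600 UMIs, 1 point per library, with lines at the group means (n = 2). Untrained replicate 1 is the highest library for each gene shown; Rps29 spans 273 to 588 CPM within the untrained pair.

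The parent genes of the tested paralogs also had lower trained means. Rpl7 was at 111 and 105 against 166 and 129 CPM, Rpl22 at 58.2 and 59.0 against 83.7 and 65.4 CPM and Rps27 at 123 and 131 against 182 and 120 CPM. Rpl10 and Rpl39, whose paralogs were not tested, were at 61.3 and 60.1 against 89.9 and 60.8 CPM and at 94.6 and 91.6 against 150 and 88.8 CPM. The smallest differences in the set were those of Rps29 (log2 -0.05), Rpl38 (-0.12) and Rps28 (-0.13), with standard errors of 0.29, 0.28 and 0.26, each larger than the difference. Leaving out Untrained replicate 1 brought the median to -0.15 with 67 of 80 below 0 and 0 called. Without Untrained replicate 2 the median was -0.58 and 19 of 80 were called lower, where 0.849% of all genes were called lower in that fit, so the count rests on which untrained library is kept.

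The libraries differed in the mix of ribosomal proteins as well as in their sum. As a share of ribosomal protein UMIs in nuclei, Rps29 made up 3.07% and 3.61% for the trained mice and 3.15% in Untrained replicate 1, but 2.02% in Untrained replicate 2. Rpl38 followed the same order at 2.23%, 2.43%, 2.27% and 1.51%, and Rps28 at 1.29%, 1.43%, 1.31% and 0.932%. These small proteins, with Rps21 and Rpl41, were low in Untrained replicate 2, while Rpl3 was high there (1.89%, against 1.21%, 1.54% and 1.32%). Rpl29 split the libraries across the groups: it made up 0.539% in Trained replicate 1 and 0.599% in Untrained replicate 2, but 0.318% in Trained replicate 2 and 0.3203% in Untrained replicate 1. These genes were picked after their values were seen, and the split of Rpl29 does not follow training.

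The same mix was found in the barcodes under 400 UMIs. There Rps29 made up 3.16%, 3.71%, 3.23% and 2.12% of ribosomal protein UMIs, and Rpl29 0.565%, 0.312%, 0.295% and 0.575%. Across the 80 genes tested, Pearson's r between the log2 shares of nuclei and low-UMI barcodes of the same library was 0.993 to 0.996 (genes of 1 library, not independent replicates), and 78 to 79 of the 80 shares agreed within 0.25 on the log2 scale.

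**Figure D3:**
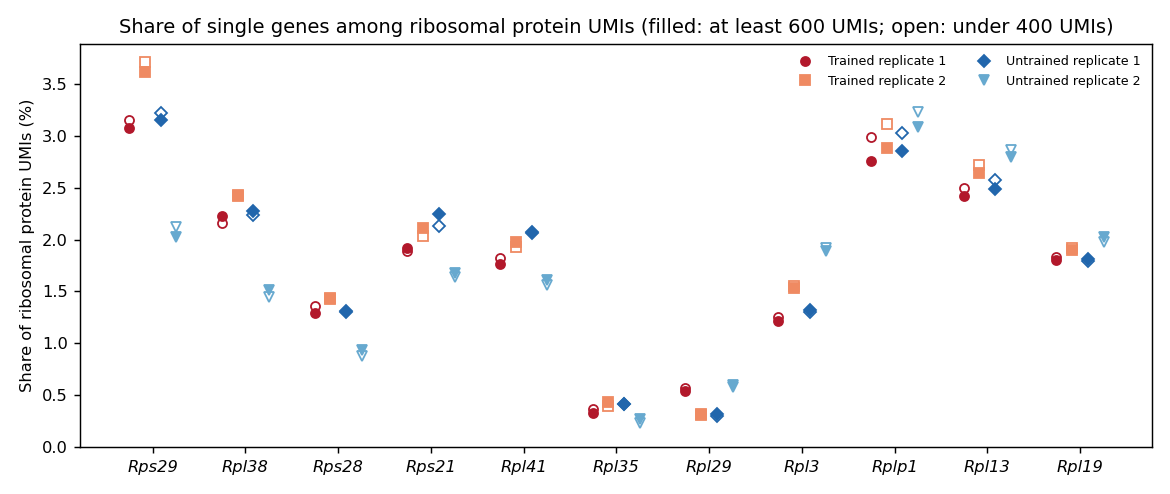
Share of single genes among all ribosomal protein UMIs (%), 1 point per library, filled for barcodes of at least 600 UMIs and open for barcodes under 400 UMIs. Rps29, Rpl38 and Rps28 are lowest in Untrained replicate 2, and Rpl29 is higher in Trained replicate 1 (0.539%) and Untrained replicate 2 (0.599%) than in the others; filled and open points lie close together.

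Every tested ribosomal protein gene was lower in nuclei than in low-UMI barcodes of the same libraries. With the library as a block, edgeR called 80 of 80 lower, where 39.9% of 17012 genes were called lower, and the median log2 difference was -1.72 against -0.04 over all genes. Rplp1 had the largest difference: 338, 349, 554 and 416 CPM in nuclei against 949, 1458, 1834 and 1623 CPM in low-UMI barcodes, a log2 difference of -1.81 (SE 0.15, edgeR adjusted p = 2.2e-05). Rplp0 (-1.72), Rplp2 (-1.74) and Rpsa (-1.74) lay close to it. Leaving out Rpl7l1, 79 genes lay between -1.81 and -1.55.

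Rpl7l1 lay outside that range. This paralog, known as a factor in large-subunit assembly in the nucleolus, stood at 18.2, 18.2, 24.96 and 20.6 CPM in nuclei and 27.5, 38.1, 47.1 and 51.5 CPM in low-UMI barcodes (log2 -0.99, SE 0.12, edgeR adjusted p = 0.00012). Its parent Rpl7 went from 107, 103, 172 and 129 CPM to 275, 420, 528 and 488 CPM (log2 -1.73). The difference between the pair was not itself tested. Rpl22 (-1.55) and Rpl22l1 (-1.62), and Rps27 (-1.62) and Rps27l (-1.67), lay within the range of the other members. Gene length did not order the members: Spearman's rho between RefSeq gene length (982 to 11774 bases) and the log2 difference was 0.02 over the 80 genes, as a description. Members with a C and T run of at least 8 in the start-site window had a median of -1.72 (27 genes). Those without had -1.71 (33 genes), also as a description. The run could lie anywhere in the window, so this split does not separate genes with a TOP tract from those without.

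Genes for other parts of translation, taken from lists that overlap in part, were mostly lower in nuclei as well. Of 19 other TOP mRNAs all 19 were called lower (median -1.59), among them Npm1, a nucleolar chaperone (-1.61), and Btf3, which binds nascent chains (-1.66). Of 10 elongation and termination factors 9 were called lower (median -1.45), of 38 initiation factors 36 (median -1.17) and of 8 snoRNA host genes with TOP starts all 8 (median -1.29). Ribosome biogenesis factors were mixed, with 33 of 49 called lower and 10 higher (median -0.69). Regulators of TOP translation had 7 of 15 called lower, where 39.9% of all genes were, and 5 higher. The share of all genes called higher is not given, so the higher calls of this list and of the biogenesis factors have no background here. Rptor, the mTORC1 scaffold, was among those called higher in nuclei (log2 1.38, SE 0.11, edgeR adjusted p = 1.8e-05). Nuclear genes of oxidative phosphorylation were all called lower (78 of 78, median -1.67), as were the 13 genes of the mitochondrial genome (median -1.53) and 75 of 78 mitochondrial ribosomal proteins (median -1.31).

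In barcodes under 400 UMIs the training comparison again called 0 of 80 by edgeR, where 0% of 16457 genes were called, and 0 by DESeq2. All 80 estimates were below 0, with a median of -0.50 against 0.03 over all genes. An unadjusted p under 0.05 was found for 9 of the 80 by edgeR, a smaller share than the 19% of all genes, and for 57 by DESeq2, where 14.8% of all genes had one. Cell type markers moved in the same barcodes: of 16 marker lists, 6 had summed levels that did not overlap between groups, each higher in trained libraries (dentate granule, CA3, deep-layer cortical, oligodendrocyte precursor, astrocyte and choroid plexus), and none was lower without overlap. This count of lists has no background share beside it either. The choroid plexus list summed to 1324 and 1104 CPM in trained and to 451 and 645 CPM in untrained low-UMI barcodes, and Ttr stood at 2907 and 4071 against 1010 and 1658 CPM. The astrocyte list summed to 1873 and 2549 against 1644 and 1632 CPM, and the dentate granule list to 1244 and 831 against 506 and 635 CPM. Their part in the lower values of the ribosomal proteins was not tested. The genes with the smallest p included the paralogs. Rps27l stood at 47.6 and 59.9 CPM in trained and 93.4 and 71.1 CPM in untrained low-UMI barcodes (log2 -0.62, SE 0.19, edgeR adjusted p = 0.21). Rpl22l1 stood at 264 and 307 against 469 and 380 CPM, Rpl7l1 at 28.2 and 37.9 against 46.7 and 50.3 CPM and Rps6 at 198 and 299 against 386 and 385 CPM. These 4 did not overlap between groups, as was so for 65 of the 80, each lower in trained libraries, where 26.8% of all genes had both trained libraries lower. Trained replicate 1 was the lowest library for each, and its barcodes reached down to 101 UMIs, against 174, 201 and 251 in the others. Without Trained replicate 2, which leaves Trained replicate 1 as the only trained library, 76 of 82 tested genes were called lower, where 14% of all genes were called lower in that fit. In barcodes of 260 to under 400 UMIs, a range that every library reaches, the median was -0.78 and 1 of 80 was called lower (1.16% of all genes were).

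The training difference was not shown to differ between nuclei and low-UMI barcodes. The edgeR interaction test called 0 of 80 (0% of 17012 genes), and 0 of the 80 had an unadjusted p under 0.05, where 8.76% of all genes had one. No DESeq2 fit was made for it. The median difference was 0.10, and leaving out Trained replicate 2 gave 8 calls, all higher, where 3.18% of all genes were called higher.

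In nuclei edgeR called no gene of the translation lists with training, and their medians lay nearer 0 than that of the ribosomal proteins. Other TOP mRNAs had 17 of 19 estimates below 0 (median -0.21), with Tpt1, a TOP mRNA often used as a model of the class, at -0.45 (SE 0.16). Initiation factors had 29 of 38 below 0 (median -0.09) and biogenesis factors 32 of 49 (median -0.08). Regulators of TOP translation had 5 of 15 below 0 (median 0.04), with Mtor at 0.18 (SE 0.12) and Eif4ebp1, a translation repressor under mTORC1, at -1.32 (SE 0.73). Among genes outside cytosolic translation, nuclear genes of oxidative phosphorylation had 77 of 78 estimates below 0 (median -0.37). Mitochondrial ribosomal proteins had 73 of 78 below 0 (median -0.29) and the mitochondrial genome 13 of 13 (median -0.47). DESeq2 called 2 of these 13 lower. The share of all genes that DESeq2 called is not given, so these calls are not read as a result about the list. No test compared the medians of these lists with the -0.38 of the ribosomal proteins. UMIs of the mitochondrial genome made up 0.301% and 0.315% in trained nuclei, below the 0.473% and 0.421% of untrained nuclei. Its part in the difference of the ribosomal proteins was not tested.

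Cell classes were set by marker gates, which take a barcode whose UMIs on a marker list exceed the library's mean share, and 8 gates held at least 30 barcodes in every library. They took 32 to 153 barcodes each in Trained replicate 1 and 64 to 526 each in the other libraries. The gate built on choroid plexus markers led with Htr2c and Trpm3 but also with Nwd2, and it is left unnamed.

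Training called 0 ribosomal protein genes in each of the 8 gates by edgeR, and 0 by DESeq2. Dentate granule barcodes had 0.0159% of all genes called, CA1 0.014%, CA3 0.0211%, thalamic excitatory 0.0177% and inhibitory barcodes 0.0141%. This is 1 gene in each, Ttr, called higher in trained mice. The background was 0% in oligodendrocyte, astrocyte and Htr2c and Trpm3 barcodes. Median log2 differences were -0.38 in dentate granule (73 of 78 below 0), -0.31 in CA1 (75 of 79), -0.18 in CA3 (62 of 78), -0.24 in thalamic excitatory (66 of 78) and -0.39 in inhibitory barcodes (77 of 79). They were -0.70 in oligodendrocytes (76 of 78), -0.69 in astrocytes (77 of 77) and -0.58 in the Htr2c and Trpm3 gate (55 of 59). In the same order of gates, 19, 9, 7, 5, 12, 25, 31 and 16 genes had an unadjusted p under 0.05 by edgeR. The share of all genes with one was 5.34%, 4.24%, 3.29%, 3.54%, 4.99%, 10.9%, 14.1% and 12.5%. DESeq2 gave 2, 0, 1, 0, 0, 3, 7 and 1 ribosomal protein genes, where the shares of all genes were 0.399%, 0.211%, 0.169%, 0.301%, 0.819%, 2.47%, 3.01% and 2.28%.

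Astrocyte barcodes had the smallest adjusted p of the 8 gates, that of Rpl35a (log2 -1.43, SE 0.33, edgeR adjusted p = 0.086), followed by Rps20 (-1.51, SE 0.37) and Rpl26 (-1.25, SE 0.34). Oligodendrocytes led with Rpl22 (-2.65, SE 0.78, edgeR adjusted p = 0.36) and Rps26 (-1.94). Rpl22 stood at 0 and 28.4 CPM in trained and 144 and 123 CPM in untrained libraries. A count of 0 allows up to 3 counts in a library, so the Rpl22 estimate rests in part on a value at the floor. Dentate granule barcodes led with Rpl14 (-1.37, SE 0.34, edgeR adjusted p = 0.15), CA1 with Rpl34 (-0.89), CA3 with Rps19 (-1.51), thalamic barcodes with Rps20 (-1.05), inhibitory neurons with Rps7 (-0.81) and the Htr2c and Trpm3 gate with Rps23 (-1.73). Whether the medians of the oligodendrocyte and astrocyte gates differ from those of the neuronal gates was not tested. Without Untrained replicate 1 the CA3 median was 0.00 with 38 of 78 below 0 and the thalamic median -0.03. Without Trained replicate 2 the thalamic median was -0.04, and without Untrained replicate 2 edgeR called 20 of 77 genes lower in oligodendrocytes (3.19% of all genes were).

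**Figure D4:**
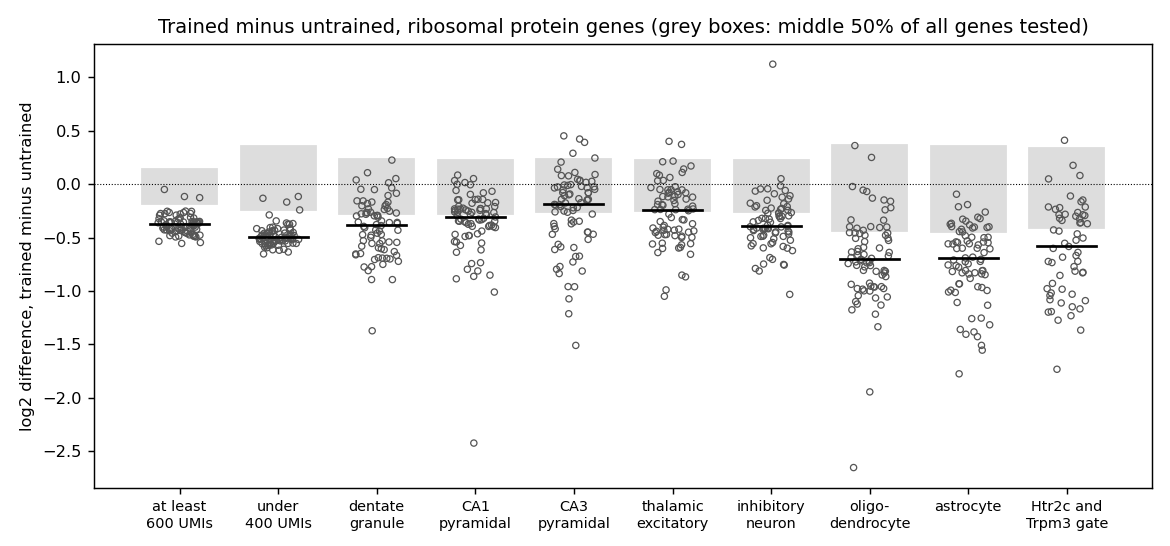
Log2 difference, trained minus untrained, of each tested ribosomal protein gene (circles; horizontal line, median) in nuclei, low-UMI barcodes and 8 marker gates; grey boxes span the middle 50% of all genes tested. No gene was called; medians run from -0.70 in oligodendrocytes to -0.18 in CA3 barcodes.

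Marker gates differed in their level of ribosomal protein mRNA, and they differed in depth as well, as given below. Among the 8 gates tested, the median difference from the other gates was highest in oligodendrocytes and astrocytes (the glial gates below) and lowest in CA3 neurons. Each gate was compared with the mean of the other 7, with the library as a block, for 78 genes of the set among 6523. In oligodendrocytes 51 of 78 were called higher (11.7% of all genes were), with a median log2 difference of 0.45, and in astrocytes 42 of 78 (11%) with a median of 0.42. In CA3 pyramidal barcodes 49 of 78 were called lower (11%), median -0.44, and in thalamic excitatory barcodes 27 (16.3%), median -0.29. CA1 had 4 lower (11%), median -0.17, and inhibitory neurons 1 lower (8.59%), Rps6. Dentate granule (24.4% of all genes called in either direction) and the Htr2c and Trpm3 gate (5.52%) had 0 called by edgeR, and 3 and 5 genes there had an unadjusted p under 0.05. The share of all genes with one was 32.9% and 15.1%. Class contrasts were fitted with edgeR alone. Gates with too few barcodes for the fit did not all follow this order by their summed share. Oligodendrocyte precursors had 1.18% ± 0.153 in trained libraries (SD, n = 2), as did dentate granule barcodes (1.18% ± 0.0356), and 1.97% ± 0.468 in untrained libraries against 1.53% ± 0.246. The blood gate had 1.70% ± 0.0326 in trained libraries, above the 1.45% ± 0.195 of oligodendrocytes and the 1.44% ± 0.0455 of astrocytes. In untrained libraries its mean of 2.21% ± 1.31 lay below the 2.34% ± 0.700 of oligodendrocytes and the 2.24% ± 0.377 of astrocytes, with a wide spread.

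Rpl8, a large-subunit protein close to the peptidyl transferase centre, led in oligodendrocytes. It stood there at 222, 394, 399.4 and 435 CPM, and in dentate granule barcodes at 135, 202, 280.3 and 198 CPM (oligodendrocytes minus the others, log2 0.67, SE 0.14, edgeR adjusted p = 6.4e-05). Rpl17 was also called higher there (log2 0.75). Rpl22l1 was called higher in both glial gates, with log2 differences of 0.62 in oligodendrocytes and 0.48 in astrocytes, and lower in thalamic barcodes (-0.55). Rpl22 itself had a log2 difference of 0.00 (SE 0.23) in oligodendrocytes and 0.43 (SE 0.21) in astrocytes, and was called in neither. Whether Rpl22 and Rpl22l1 differ in these gates was not tested. In astrocytes Rps26 led (log2 0.71, SE 0.16, edgeR adjusted p = 2e-04), at 214, 166, 308 and 233 CPM against 27.8, 67.6, 298 and 129 CPM in oligodendrocytes, where it was not called. Rps18 (0.64) and Rps23 (0.61) came next.

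In CA3 barcodes Rps27a, made as a fusion with ubiquitin, was called lower (log2 -0.59, SE 0.14, edgeR adjusted p = 0.00029). It stood at 152, 214, 241 and 184 CPM there and at 316, 268, 383 and 280.5 CPM in dentate granule barcodes. Rplp1 was also called lower in CA3 (log2 -0.55). In thalamic barcodes Rplp2 (-0.61), Rps24 (-0.53) and Rps10 (-0.53) led, and in CA1 Rpl21 (-0.43), Rps7 (-0.38) and Rps3 (-0.38). Rps6 in inhibitory neurons had a log2 difference of -0.44 (SE 0.17, edgeR adjusted p = 0.048).

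**Figure D5:**
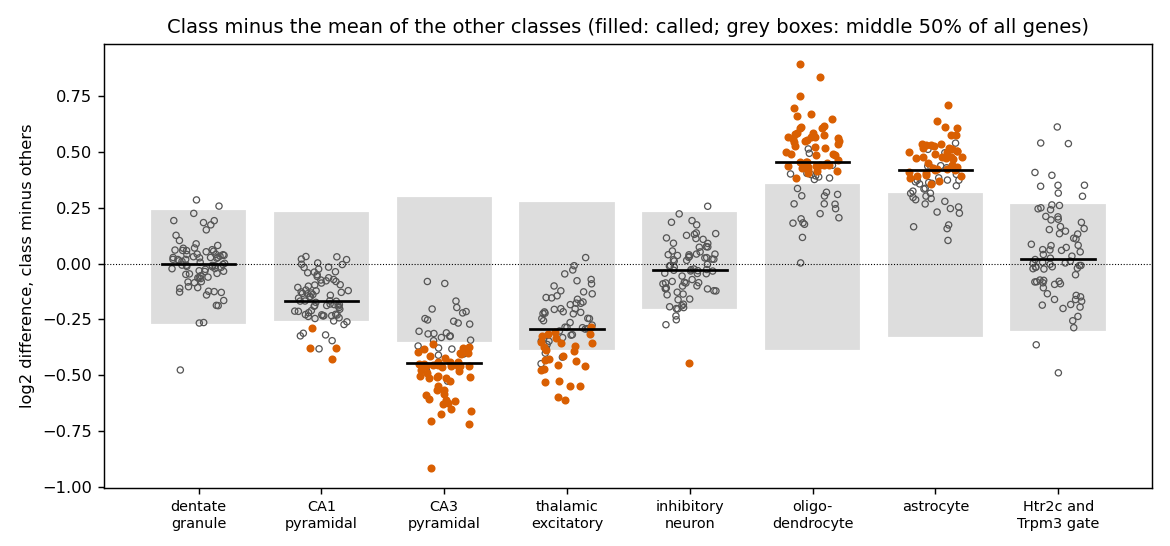
Log2 difference of each of 78 ribosomal protein genes between a marker gate and the mean of the other gates (filled, called by edgeR at an adjusted p of 0.05; open, not called; line, median; grey boxes, middle 50% of all genes). Oligodendrocyte and astrocyte gates lie above 0 (51 and 42 called higher) and CA3 and thalamic gates below (49 and 27 called lower). The gates also differ in depth. In barcodes of 600 to under 1000 UMIs the counts in the same order were 19, 16, 1 and 0 of 72. The shares of all genes called there were 13.3%, 11.9%, 3.73% and 8.41%.

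Depth moved with these class differences. Median UMIs in CA3 barcodes were 877, 1290.0, 1515 and 1733, and in astrocytes 731.5, 852, 722 and 750.0. Among barcodes of 600 to under 1000 UMIs, a window chosen after seeing the data, oligodendrocytes held 11.2, 14.4, 23.5 and 17.2 ribosomal protein UMIs per barcode and astrocytes 11.8, 13.2, 22.01 and 17.4. Dentate granule barcodes held 10.4, 11.8, 18.7 and 15.7, and CA3 barcodes 9.21, 10.1, 15.8 and 12.6, and the CA3 barcodes had the higher median UMIs of these 2 gates in each library. The glial gates were above the other 6 gates in each of the 4 libraries. In this window edgeR called 19 of 72 genes higher in oligodendrocytes (median 0.42; 13.3% of all genes were called higher) and 16 of 72 in astrocytes (median 0.36; 11.9%). It called 1 of 72 lower in CA3 (median -0.36; 3.73% of all genes), on 10 to 35 CA3 barcodes per library, and 0 lower in thalamic barcodes (median -0.14; 8.41%). Leaving out 1 library gave 15 to 50 calls in oligodendrocytes, 12 to 44 in astrocytes, 20 to 45 in CA3 and 5 to 14 in thalamic barcodes. As a share of the members tested this was 19.5% to 62.5%, 15.4% to 56.4%, 26.0% to 56.3% and 6.41% to 17.5%, where 8.74% to 11.8%, 7.29% to 11%, 8.48% to 9.97% and 11.4% to 13.6% of all genes were called. With 1 library left out the thalamic count therefore lay near the background. Without Untrained replicate 1 the counts were 15 in oligodendrocytes, 19 in astrocytes, 20 in CA3, 11 in thalamic and 2 in CA1 barcodes. Without Untrained replicate 2 they were 33, 12, 25, 5 and 1. Thalamic barcodes had 14 without Trained replicate 1 and 13 without Trained replicate 2. Rps6 in inhibitory neurons kept its call only without Trained replicate 2 among the 4 fits.

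Genes of some other lists were called in the same direction in these gates. Of all genes tested, 11.7% were called higher in oligodendrocytes, 11% higher in astrocytes and 11% lower in CA3. Nuclear genes of oxidative phosphorylation had 32 of 76 called higher in oligodendrocytes (median 0.41), 20 of 76 higher in astrocytes (0.34) and 24 of 76 lower in CA3 (-0.35). The mitochondrial genome had 8, 7 and 9 of 12 called in the same 3 gates and directions. Other TOP mRNAs had 7 of 18 called higher in each glial gate and 6 of 18 lower in CA3. Ribosome biogenesis factors had 2 of 19 called higher in each glial gate and 3 lower in CA3, with a median of -0.01 there. These counts lay near the shares of all genes, so they are not read as a result about the list. In oligodendrocytes 1 biogenesis factor was also called lower, a call with no background here.

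Barcodes rich in ribosomal protein UMIs were rare. At least 60 such UMIs were found in 0 of 6019, 8 of 12206, 27 of 16916 and 5 of 11969 barcodes of at least 600 UMIs, and the highest count was 214 in a barcode of 6912 UMIs in Untrained replicate 1.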

How the data were processed

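Single-nucleus libraries were made with the Chromium 3′ chemistry, per the labels. Whole-number UMI counts for each barcode were deposited, and per the file headers version 7.0.0 of Cell Ranger made them. The submitters' processing notes name Cell Ranger 8, STAR and GRCm39, at odds with the headers. Whether intronic reads were counted is not given in the sources used here. Members and gene lists were chosen with earlier results of these data known. Genes named are the 12 with the highest mean CPM, for training up to 8 called in each direction by smallest p or 4 where fewer than 4 were called, for classes up to 3 called in each direction, for other lists 3 by smallest p, the stalk genes, Rpsa and the l paralogs with their parents. Other genes named (Rps28, Rpl29 and Rpl35 for their mix, the ends of ranges, and the start-site examples) were chosen after their values were seen. Some genes that this rule takes are not reported here.

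Counts were summed per library for barcodes of at least 600 UMIs, under 400 UMIs, and for each marker gate (Poisson p under 0.001 for at least 2 markers; barcodes with a second class at p under 0.02 left out; no doublet caller was run). Barcodes of a second class were 4.15% to 10.95% of those of at least 600 UMIs. The sums were tested in R 4.3.3 with edgeR 4.0.16 (filterByExpr, TMM, quasi-likelihood F test, Benjamini-Hochberg over all genes tested, called at 0.05). The fit was tested on simulated data. Alternatives were DESeq2 1.42.0, DESeq2-style size factors, no filter, a replicate block, each library left out, at least 1000 UMIs, thinning to 600 UMIs, at most 1% mitochondrial UMIs, a stricter gate, barcodes of 260 to under 400 UMIs and, added after seeing the data, barcodes of 600 to under 1000 UMIs. Python 3.11.15 was used for the sums. The eYFP-marked nuclei and the spatial data were not analysed here.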

Additional observations from a re-analysis of the deposited data

How the results depend on the processing

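The 80 calls of nuclei against low-UMI barcodes were found under every alternative run for it. In nuclei the training comparison gave 3 calls without a count filter and 0 to 19 with 1 library left out. In low-UMI barcodes it gave 1 without a filter, 1 in barcodes of 260 to under 400 UMIs and 0 to 76 with 1 library left out; the log2 ratio of the summed shares there went from -0.38 to -0.68 in barcodes of 260 to under 400 UMIs. Leaving out 1 library gave 0 to 8 calls for the interaction, 0 to 20 in oligodendrocytes and 0 to 1 in astrocytes; barcodes of 600 to under 1000 UMIs gave 1 and 6 in these 2 gates. For the class contrasts, no count filter gave 0 lower in CA1, 23 in CA3, 4 in thalamic and 0 in inhibitory barcodes, and 17 higher in oligodendrocytes and 14 in astrocytes. Other size factors gave 13 in CA1 and 1 each in the dentate granule and Htr2c and Trpm3 gates. The stricter gate gave 1 in CA1, 7 in thalamic and 0 in inhibitory barcodes. Barcodes of 600 to under 1000 UMIs gave 0 in CA1, 1 in CA3, 0 in thalamic, 0 in inhibitory, 19 in oligodendrocyte and 16 in astrocyte barcodes. With 1 library left out the counts were 0 to 1 in dentate granule, 1 to 5 in CA1, 20 to 45 in CA3, 5 to 14 in thalamic, 0 to 1 in inhibitory, 15 to 50 in oligodendrocyte, 12 to 44 in astrocyte and 0 to 1 in Htr2c and Trpm3 barcodes. The cause was not tested in any of these. Where no share of all genes called is given beside a count, the count shows only how calls moved with the setting. It is then not a result about the ribosomal protein genes, and this holds for the replicate block below as well.

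Named genes changed sign in the training comparisons only as follows. In nuclei, leaving out 1 library gave log2 -0.50 to 0.61 for Rps29, -0.55 to 0.51 for Rpl38, -0.74 to 0.15 for Rps21, -0.53 to 0.036 for Rpl6, -0.73 to 0.098 for Rpl41, -0.52 to 0.077 for Rps27 and -0.70 to 0.067 for Rpl39, the highest value each time without Untrained replicate 1. Rps29 also came to 0.04 without Trained replicate 1 and to 0.054 with the replicate block. In low-UMI barcodes the ranges were -0.56 to 0.39 for Rps29, -0.57 to 0.35 for Rpl38 and -0.67 to 0.014 for Rps27, highest without Untrained replicate 1. Without Trained replicate 1, Rps29 came to 0.21 and Rpl38 to 0.13. Of 1204 values under alternatives for the named genes, 1118 kept sign and side of the threshold, 29 lost a call and 43 gained one.

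The replicate numbers are in the labels but do not show a shared origin: correlations of same-numbered deviations ran from -0.07 to 0.10 over 10 sets of barcodes. The replicate block gave 2 calls in astrocytes and 0 in the other training comparisons. Where an arm was left with 1 library, that library is assumed to vary like the others. Gates were not fitted at a minimum of 1000 UMIs, and the stricter gate was not fitted for CA3, oligodendrocyte and astrocyte barcodes, since a library had too few barcodes.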
